A study of Mus musculus with 3 samples.

Results

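Complement is a cascade of plasma and tissue proteins that tags cells, debris and microbes. In its classical pathway C1q, built from an A, a B and a C chain, recognises a surface and activates the proteases C1r and C1s, which cleave C4 and C2, and the resulting enzyme cleaves C3, the protein on which all routes converge. C1 inhibitor holds C1r and C1s in check. The liver makes most circulating complement, while within tissues macrophages are the main source of C1q and stromal cells make C1r, C1s, C3, C4 and C1 inhibitor.

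The transcripts of 9 classical pathway genes (C1qa, C1qb, C1qc, C1ra, C1s1, C2, C3, C4b and Serping1) are described here in pooled calf muscle (gastrocnemius with plantaris) from male mice. They were chosen by gene symbol, and all 9 were found among the 42258 gene rows of each table. Aged EPA mice (C57BL/6J, 87 weeks old) had been fed 1 wt% eicosapentaenoic acid (EPA), a fatty acid of fish oil, during 12 weeks that began at 75 weeks of age, and aged control mice of the same strain and age had an EPA-deprived diet over the same weeks. Young mice were 24 weeks old, their strain is written C57BL/7J, and their diet is not given. RNA of 6 aged EPA, 6 aged control and 3 young mice was pooled, so that each group is 1 library, age cannot be told apart from any difference in strain or diet between the aged and the young mice, and no difference between mice can be measured.

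Values are CPM, counts scaled by library size, as the authors deposited them. Whole counts recovered from them summed to 55969822 for the aged EPA, 57622886 for the aged control and 57386394 for the young library. With 1 library a group no test exists and no p-value is given. Differences are described by the log2 change of CPM + 1, by whether they reach 1.2-fold on that scale, and by the count ratio, which is the ratio of recovered counts per library total with its 95% exact counting interval. The interval covers counting error only, so that a ratio whose interval leaves out 1 differs between these libraries beyond counting error and not necessarily between groups of mice. The deposited values carry divisors that differ from gene to gene, which moved the log2 changes of the 9 genes by -0.08 to 0.04 against those from recovered counts. The comparisons cover 12966 genes whose CPM averaged 1 or more across the libraries, and all 9 members are among them.

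The loci lie on 4 chromosomes (GRCm38, GENCODE M21). C1qa (ENSMUSG00000036887, 136895917 to 136898803), C1qc (ENSMUSG00000036896, 136889804 to 136893065) and C1qb (ENSMUSG00000036905, 136880129 to 136886187) are neighbours on the minus strand of chromosome 4. C1ra (ENSMUSG00000055172, 124512405 to 124523443, plus strand) and C1s1 (ENSMUSG00000038521, 124530345 to 124542359, minus strand) face each other on chromosome 6. C4b (ENSMUSG00000073418, 34728380 to 34743882) and C2 (ENSMUSG00000024371, 34862604 to 34898265) lie in the class III region of the MHC on chromosome 17, and C3 (ENSMUSG00000024164, 57203970 to 57228136) lies farther along it, all on the minus strand. Serping1 (ENSMUSG00000023224, 84765387 to 84775444), which encodes C1 inhibitor, is on the minus strand of chromosome 2.

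The promoters of C1qb, C1qc and C3 are shown because of the levels of these genes. The C1q neighbours lay between 32.2 and 37.9 CPM in all 3 libraries, while C3 was higher in both aged libraries than in the young one. Only these 3 of the 5 available windows held a match to the motifs searched. Each sequence holds the 250 bases before the transcription start in RefSeq (GRCm38.p6), at chr4:136886201-136886450, chr4:136892915-136893164 and chr17:57228137-57228386, all on the minus strand. The GENCODE gene of C1qc reaches to 136893065, so part of its window lies inside the gene in that annotation. Capitals mark matches to the motifs GAGGAA, the core often bound by the myeloid factor PU.1, and to a loose NF-kB motif, GGG and CC with any 5 bases between them.
C1qb: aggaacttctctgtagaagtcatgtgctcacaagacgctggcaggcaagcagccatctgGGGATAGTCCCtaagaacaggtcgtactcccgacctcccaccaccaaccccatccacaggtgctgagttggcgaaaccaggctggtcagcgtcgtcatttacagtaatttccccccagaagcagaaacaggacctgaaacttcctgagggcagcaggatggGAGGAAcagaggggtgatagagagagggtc
C1qc: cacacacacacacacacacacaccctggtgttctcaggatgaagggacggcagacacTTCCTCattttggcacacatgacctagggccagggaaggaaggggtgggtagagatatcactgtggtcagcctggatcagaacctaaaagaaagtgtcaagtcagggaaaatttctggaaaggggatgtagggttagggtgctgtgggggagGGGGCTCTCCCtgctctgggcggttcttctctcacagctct
C3: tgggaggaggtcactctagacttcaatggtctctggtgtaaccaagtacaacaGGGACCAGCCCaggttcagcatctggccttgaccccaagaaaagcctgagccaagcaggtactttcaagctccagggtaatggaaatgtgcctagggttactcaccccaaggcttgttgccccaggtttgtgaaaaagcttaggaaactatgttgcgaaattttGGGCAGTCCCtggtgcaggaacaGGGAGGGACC

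GAGGAA was found on either strand in the windows of C1qb and C1qc, that is in 2 of the 5 members with a promoter in the table, and in 23.1% of all 27025 promoters. The NF-kB motif was found in those of C1qb, C1qc and C3, and in 45.4% of all promoters, and its matches on opposite strands overlap. TTCNNNGAA, the STAT form, a loose interferon response motif, GAAA repeated after any 2 bases, and TGACTCA, the AP-1 form, were in none of the 5 windows and in 7.18%, 3.04% and 4.43% of all promoters. The windows of C1ra and C1s1 held none of the 5 motifs, and part of the C1ra window also lies inside its GENCODE gene. These matches describe letters and not bound sites.

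C4b, which encodes complement C4, differed most of the 9 genes and was higher in both aged libraries, highest with EPA. C3 and Serping1 were higher in both aged libraries than in the young one at nearly the same level with and without EPA. C1ra and C1s1 were highest with EPA, then aged control, then young, and the C1q chains were highest with EPA at similar levels in the other libraries. None of the 9 genes differed by 2-fold between any pair of libraries, beside 0.694% of compared genes higher and 0.64% lower in aged EPA against aged control, 0.895% and 0.841% in aged control against young, and 0.802% and 0.802% in aged EPA against young.

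**Figure D1:**
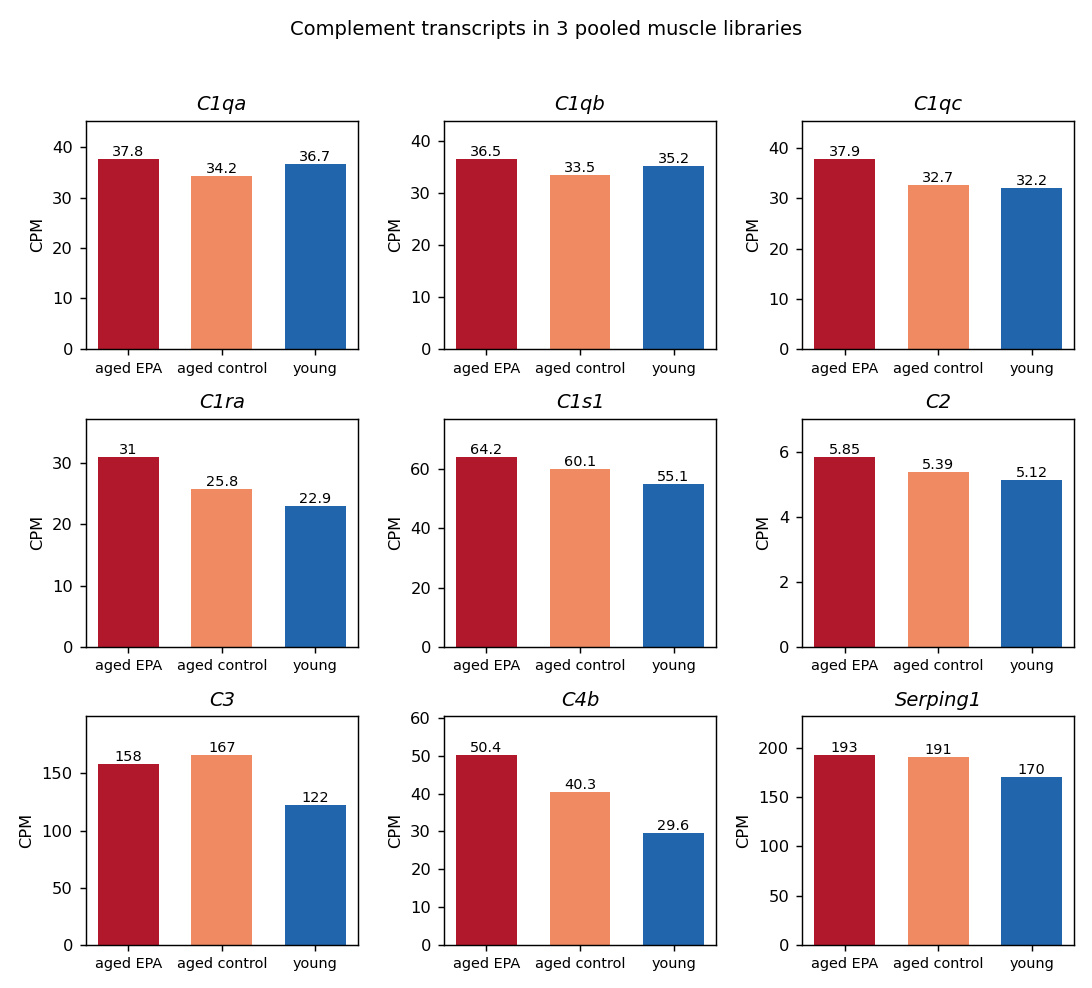
Deposited CPM (vertical axes, from 0, scaled per gene) of the 9 complement genes in the aged EPA, aged control and young libraries, 1 bar a library with its value above it. C4b stands at 50.4, 40.3 and 29.6 CPM and C3 at 158, 167 and 122 CPM, while the C1q chains all lie between 32.2 and 37.9 CPM.

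The recognition chains come first. C1qa stood at 37.8 CPM in aged EPA, 34.2 CPM in aged control and 36.7 CPM in young. C1qb stood at 36.5, 33.5 and 35.2 CPM and C1qc at 37.9, 32.7 and 32.2 CPM in the same order of libraries. All 3 chains were higher in aged EPA than in aged control, by log2 changes of 0.14, 0.12 and 0.21, none of which reached 1.2-fold. Their count ratios were 1.16 (1.09 to 1.23) for C1qa, 1.15 (1.08 to 1.22) for C1qb and 1.22 (1.14 to 1.296) for C1qc. Summed over the chains, 6474 counts in aged EPA and 5679 in aged control gave a count ratio of 1.17.

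Between aged control and young the summed chains, with 5679 and 5830 counts, had a log2 count ratio of -0.04 (-0.10 to 0.01), an interval that included 0. C1qa had a count ratio of 0.938 (0.881 to 0.998), C1qb of 0.956 (0.897 to 1.02) and C1qc of 1.02 (0.958 to 1.09), so that the interval left out 1 for C1qa only, and the 3 intervals overlapped. Log2 changes were -0.10, -0.07 and 0.02, and those of C1qa and C1qb turned to 0.02 and 0.05 when the trend of change with exon length over all compared genes was subtracted, so that their direction with age depends on the processing. The balance of the chains was also compared. C1qc had 1.04 counts per C1qb count in aged EPA (0.977 to 1.10), 0.977 in aged control (0.916 to 1.04) and 0.913 in young (0.856 to 0.974), where the intervals of aged EPA and young did not overlap and that of aged control overlapped both, while C1qa had 1.03, 1.02 and 1.04 counts per C1qb count.

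The proteases C1r and C1s were ordered alike. C1ra stood at 31.0 CPM in aged EPA, 25.8 CPM in aged control and 22.9 CPM in young. C1s1 stood at 64.2, 60.1 and 55.1 CPM. For aged EPA against aged control the count ratio was 1.25 (1.16 to 1.34) for C1ra and 1.08 (1.03 to 1.13) for C1s1. These intervals do not overlap, and C1s1 had 2.06 counts per C1ra count in aged EPA, 2.40 in aged control and 2.36 in young. For aged control against young the ratios were 1.09 (1.01 to 1.18) and 1.11 (1.06 to 1.16). C1rb and C1s2, near-identical copies that could share reads with them, had at most 22 counts in any library, and with them added the ratios for aged EPA against aged control were 1.23 and 1.08.

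C4b stood at 50.4 CPM in aged EPA, 40.3 CPM in aged control and 29.6 CPM in young. Each step lay beyond counting error. The count ratio was 1.31 (1.24 to 1.39) for aged EPA against aged control, 1.37 (1.29 to 1.46) for aged control against young and 1.80 (1.69 to 1.91) for aged EPA against young. On the scale of CPM + 1 the log2 changes were 0.31, 0.43 and 0.75, and 174 of the 12966 compared genes, or 1.34%, had a change at least as high as C4b in aged EPA against young. Reads of C4b can also match C4a, a near-identical copy also on chromosome 17, which had 10 counts in aged EPA, 61 in aged control and 5 in young. With both genes summed the ratio for aged EPA against aged control was 1.28 and that for aged control against young 1.40.

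C2, the other part of the enzyme that cleaves C3, was the scarcest member. It stood at 5.85 CPM in aged EPA, 5.39 CPM in aged control and 5.12 CPM in young, from 331, 302 and 294 counts. All 3 of its intervals included 1, and a difference was not detectable at this depth. C4b thus had 8.78 counts per C2 count in aged EPA, 7.56 in aged control and 5.64 in young. The exons of C2 share 1656 bases with Gm20547, an annotated gene on the same strand at up to 0.283 CPM, and 161 bases with Zbtb12 on the other strand, at 4.55, 4.40 and 2.62 CPM. Whether strand was used in counting is not given in the sources used here, so the values of C2 are uncertain in this respect.

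C3 stood at 158 CPM in aged EPA, 167 CPM in aged control and 122 CPM in young. Its count ratio was 1.37 for aged control against young (1.33 to 1.42) and also for aged EPA against young (1.33 to 1.41). Between the aged libraries the ratio was 0.999 (0.970 to 1.03), although deposited CPM gave a log2 change of -0.07, which comes from the divisors of this gene. C3 had 3.14 counts per C4b count in aged EPA, 4.13 in aged control and 4.12 in young, nearly the same proportion in aged control and young and a lower one in aged EPA.

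Serping1 was the most abundant of the 9 genes in every library, at 193 CPM in aged EPA, 191 CPM in aged control and 170.0 CPM in young. Against young the count ratio was 1.16 (1.12 to 1.19) in aged EPA and 1.14 (1.11 to 1.17) in aged control. Between the aged libraries it was 1.02 (0.988 to 1.04). The inhibitor transcript thus differed with age less than C3 and C4b did, with intervals that do not overlap theirs.

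**Figure D2:**
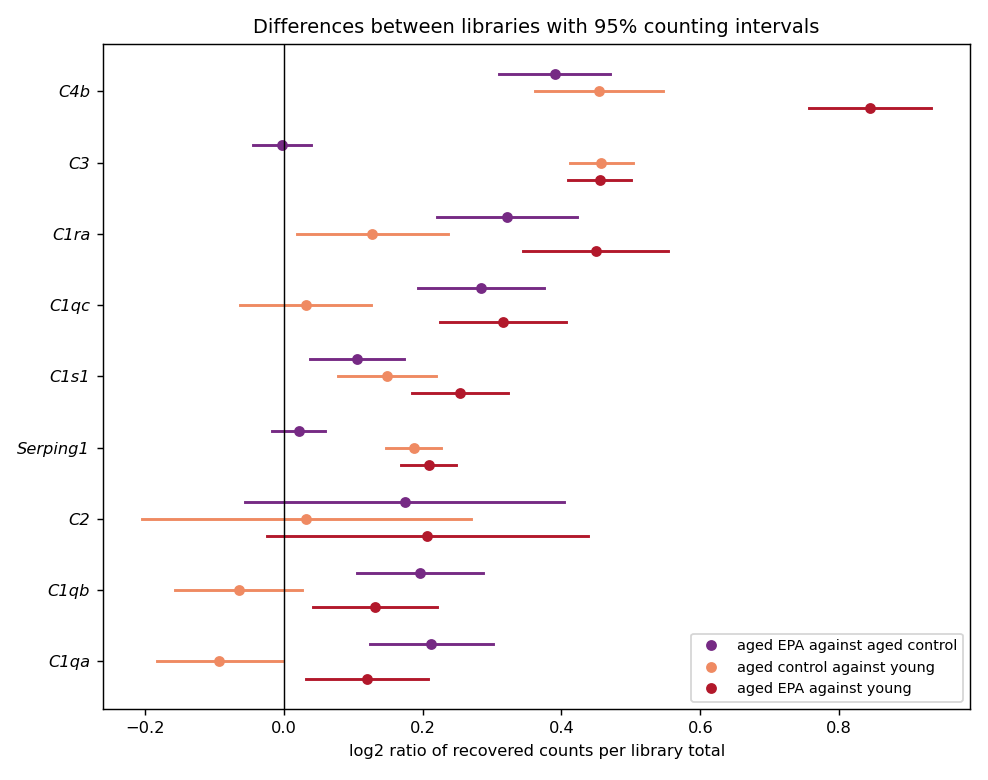
Log2 count ratios (horizontal axis) of the 9 genes with 95% counting intervals (lines), colour showing the comparison. C4b lies highest in aged EPA against young at 0.84, C3 and Serping1 lie near 0 between the aged libraries, and the wide intervals of C2 all cross 0.

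Counted over the 9 genes at the 1.2-fold threshold, aged EPA against aged control had 1 higher (C4b) and 0 lower, beside 8.08% and 11% of all compared genes. In aged control against young, 2 (C3 and C4b) were higher and 0 lower, beside 12.6% and 14.6%. In aged EPA against young, 3 (C1ra, C3 and C4b) were higher and 0 lower, beside 10.3% and 16.2%. On deposited CPM a share of 1 in 9 genes is close to the background. The first of these counts depends on the scaling, since C1ra had a log2 change of 0.26 just short of the threshold. From recovered counts 3 members passed it, C1qc, C1ra and C4b, at log2 changes of 0.28, 0.31 and 0.38. The share of all compared genes was not computed on that scale. The count for aged EPA against young was 4 in place of 3 under some scalings, for which the share was not computed either. At 1.5-fold, C4b in aged EPA against young was the only member called, beside 2.4% of compared genes higher and 2.96% lower. The shares at 1.5-fold were 1.69% and 1.91% in aged EPA against aged control and 2.69% and 2.55% in aged control against young.

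Counting intervals were wholly on the higher side for 6 of the 9 genes in aged EPA against aged control (C1qa, C1qb, C1qc, C1ra, C1s1 and C4b), beside 25.4% of all compared genes, and for 0 on the lower side, beside 20.9%. In aged control against young they were higher for 5 (C1ra, C1s1, C3, C4b and Serping1), beside 25.5%, and lower for 1 (C1qa), beside 29.7%. In aged EPA against young they were higher for 8, all but C2, beside 26.9%, and lower for 0, beside 27.4%. An interval narrows with more counts, and the compared genes reach down to a mean of 1 CPM. All members but C2 averaged over 10 CPM, and C2 was called in no comparison. These shares are not matched to the members for abundance, so the numbers of members are not directly comparable with them. The median log2 change of the 9 genes was 0.12, 0.12 and 0.22 in the 3 comparisons in this order, and that of all compared genes was -0.03, -0.01 and -0.04. Aged control is shared by the first and second comparison and young by the other pair, so these counts are not independent of each other.

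Per kilobase of exon, Serping1 led in every library with 83.0 CPM per kb in aged EPA, 82.1 in aged control and 73.1 in young. C1qa followed at 36.3, 32.9 and 35.3 CPM per kb, and then C1qb at 33.6, 30.8 and 32.4 and C3 at 30.8, 32.4 and 23.7. C1s1, C1qc, C1ra, C4b and C2 came after them in the same order in all 3 libraries, ending with C2 at 1.51, 1.39 and 1.32 CPM per kb. Only C1qb and C3 changed places, C3 standing above C1qb in aged control. Exon lengths are those of all annotated exons of a gene joined, so a gene with long rarely used exons is placed too low.

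Of 48 other complement genes taken by role, 19 were compared and 11 had no count in any library, where 3 counts, the limit that a count of 0 allows, would be 0.0536 CPM in aged EPA, 0.0521 CPM in aged control and 0.0523 CPM in young. At least 1.2-fold higher were 5 and lower 3 in aged EPA against aged control, beside 8.08% and 11% of all compared genes. In aged control against young they were 6 and 5, beside 12.6% and 14.6%. In aged EPA against young they were 7 and 5, beside 10.3% and 16.2%. Their median log2 changes were 0.0013, -0.13 and 0.14 in the same order. These genes were thus called in both directions in each comparison.

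In the terminal pathway, C7, a part of the membrane attack complex, stood at 31.2 CPM in aged EPA, 29.4 CPM in aged control and 14.8 CPM in young, with count ratios against young of 2.15 (1.98 to 2.34) and 1.94 (1.78 to 2.11). C8g stood at 1.40, 0.831 and 1.14 CPM, and C8a, C8b and C9 had no count. The ratios of C7 were above those of all 9 genes in both comparisons with young. Among fluid-phase regulators, Clu, which encodes clusterin, an inhibitor of the membrane attack complex, stood at 42.1 CPM in aged EPA, 69.1 CPM in aged control and 58.4 CPM in young (count ratio for aged EPA against aged control 0.639, 0.607 to 0.672). Vtn, which encodes vitronectin, stood at 20.4, 21.2 and 25.1 CPM.

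In the alternative pathway, Cfb, which encodes factor B and lies beside C2, stood at 8.39 CPM in aged EPA, 9.85 CPM in aged control and 6.69 CPM in young. Its ratio for aged control against young was 1.43 (1.26 to 1.64), near that of C3 and C4b. Cfd, the protease that cleaves factor B and a product of adipocytes, stood at 85.3, 59.1 and 109.7 CPM, lowest in aged control. Cfp, which encodes properdin, stood at 12.6, 10.8 and 11.9 CPM. In the lectin pathway only Fcna, a ficolin of macrophages, was compared, at 5.43, 6.05 and 4.26 CPM, and Mbl1, Mbl2 and Fcnb had no count.

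Of 8 membrane regulators 4 were compared, the others averaging under 1 CPM, and 3 of the 4 (Cr1l, Cd59a and Cd59b) passed the 1.2-fold threshold on the lower side for aged control against young, beside 14.6% of all compared genes. In aged EPA against young 0 were higher and 1 lower, beside 10.3% and 16.2%. In aged EPA against aged control 1 was higher and 1 lower, beside 8.08% and 11%. Cr1l, which encodes the rodent regulator Crry, stood at 25.0 CPM in aged EPA, 21.4 CPM in aged control and 27.5 CPM in young, and Cd55 at 51.1, 53.0 and 52.8 CPM. Cd59a, an inhibitor of the membrane attack complex, stood at 9.55, 23.7 and 30.4 CPM (count ratio for aged EPA against aged control 0.405, 0.366 to 0.448) while its copy Cd59b stood at 3.82, 2.44 and 3.37 CPM, and reads shared by the pair make both uncertain. Among receptors, Itgam and Itgb2, the chains of complement receptor 3, stood at 7.23, 7.40 and 5.73 CPM and at 6.63, 5.08 and 4.82 CPM. Cd93, an endothelial gene once described as a C1q receptor, stood at 29.6, 35.7 and 42.6 CPM, and C1qbp, a mitochondrial protein that binds C1q, at 65.5, 58.8 and 67.1 CPM.

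**Figure D3:**
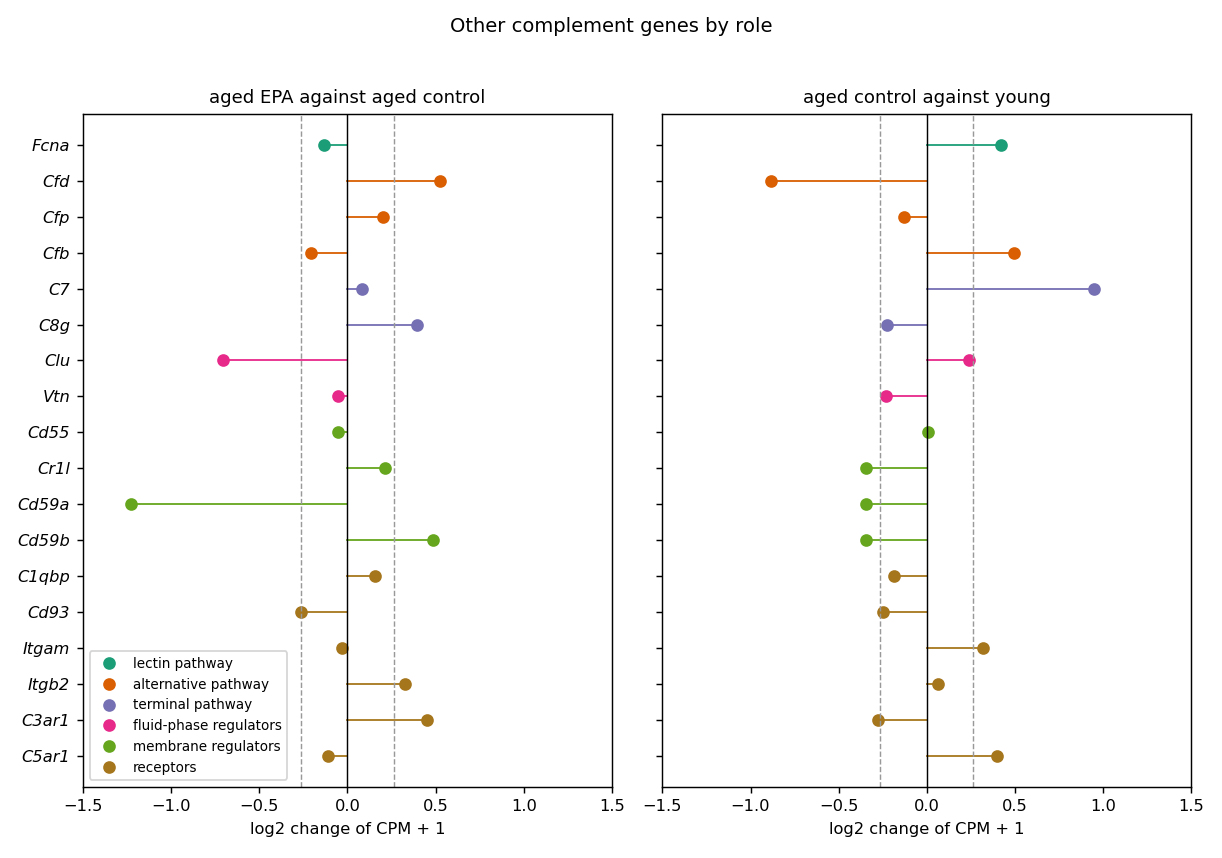
Log2 change of CPM + 1 (horizontal axes) of 18 compared complement genes outside the 9, coloured by role, in aged EPA against aged control (left) and aged control against young (right), with dashed lines at 1.2-fold. C7 lies farthest to the right with age, at 0.94, and Cd59a farthest to the left with EPA, at -1.23.

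Markers of the labelled tissue were abundant, 8 skeletal muscle fibre genes summing to 144501 CPM in aged EPA, 141817 CPM in aged control and 127535 CPM in young. Markers of the cells known to make complement were set beside the members, and in bulk RNA fewer cells of a type and less RNA per cell cannot be told apart. Summed over 18 macrophage markers the level was 337 CPM in aged EPA, 335 CPM in aged control and 325 CPM in young. Of 16 compared markers 1 was at least 1.2-fold higher and 0 lower in aged EPA against aged control, beside 8.08% and 11% of all compared genes. The summed C1q level was 112, 100.4 and 104 CPM, or 0.333, 0.300 and 0.320 of the macrophage sum. Without Lyz2, a large part of it, the macrophage sum was 229, 231 and 213 CPM. The macrophage markers moved unevenly between aged control and young, 3 higher and 2 lower, beside 12.6% and 14.6% of all compared genes. Cd163 stood at 36.7, 35.8 and 26.8 CPM and Lyz2 at 108, 104 and 111 CPM. Their part in the C1q differences was not tested.

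Summed over 14 markers of fibro-adipogenic progenitors, the stromal cells of muscle, the level was 3361 CPM in aged EPA, 3276 CPM in aged control and 3457 CPM in young, with a median log2 change of 0.0030 in aged control against young. Pdgfra, which defines these cells, stood at 42.5, 43.4 and 41.0 CPM. The 6 members other than C1q summed to 503 CPM in aged EPA, 489 CPM in aged control and 405 CPM in young, which was 0.150, 0.149 and 0.117 of the progenitor sum. The part of the progenitor markers in the differences of these 6 genes was not tested. Within the progenitor list 1 of 14 markers was at least 1.2-fold higher and 5 were lower in aged control against young, beside 12.6% and 14.6% of all compared genes, and 8 were neither. In aged EPA against aged control 3 were higher and 3 lower, beside 8.08% and 11%. Of those lower in aged control against young, Col3a1 stood at 110.0, 150.01 and 217 CPM and Ly6a at 49.3, 21.3 and 60.7 CPM.

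Other marker lists also differed between the libraries. Endothelial markers (8 genes) summed to 391 CPM in aged EPA, 435 CPM in aged control and 508 CPM in young, and adipocyte markers (8 genes, Cfd among them) to 2426, 2276 and 2565 CPM, most of it from Car3, which muscle fibres express too. B and plasma cell markers (8 genes) summed to 234, 221 and 151 CPM, most of it from Ighm, and neutrophil markers (8 genes) to 3.84, 3.34 and 1.12 CPM, with Ly6g, Camp and Ngp at 0. Of 8 hepatocyte markers 5 had no count in any library and the sum was at most 1.03 CPM. The part of the endothelial, adipocyte, B cell and neutrophil differences in the values of the complement genes was not tested.

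**Figure D4:**
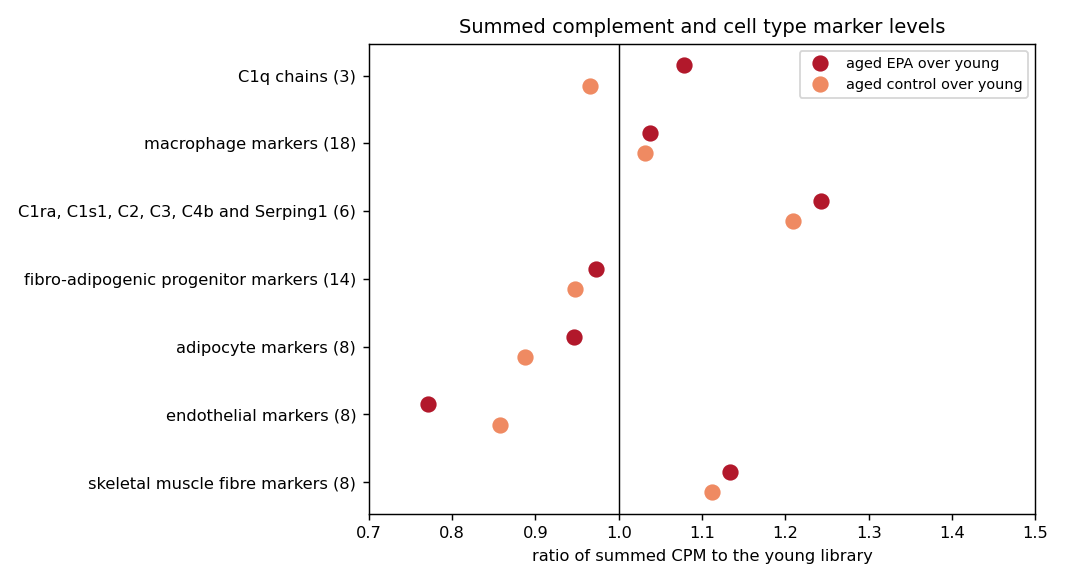
Ratio of summed CPM to the young library (horizontal axis) for the C1q chains, the other 6 complement genes and lists of cell type markers, with the number of genes summed in brackets. The 6 genes lie at 1.24 in aged EPA and 1.21 in aged control, while the progenitor markers lie at 0.972 and 0.948.

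Genes that respond to interferon or to acute inflammation were read beside the members because C3, C4b and Serping1 are known targets of both. Of 14 compared interferon genes 1 was at least 1.2-fold higher and 1 lower in aged EPA against aged control, beside 8.08% and 11% of all compared genes. In aged control against young 3 were higher and 3 lower, beside 12.6% and 14.6%. Stat3, a transcription factor of cytokine signalling, stood at 47.4, 48.7 and 46.3 CPM, Ifitm3 at 43.3, 35.3 and 45.0 CPM and Irf1 at 10.2, 10.5 and 12.4 CPM, in aged EPA, aged control and young. Of 9 compared acute phase and NF-kB genes 0 were higher or lower in aged EPA against aged control, beside 8.08% and 11% of all compared genes. In aged control against young 2 were higher and 1 lower, beside 12.6% and 14.6%. The log2 changes of these called genes ranged from -0.98 to 1.08. None of them is among the acute phase and NF-kB genes given next, most of which were named for their high mean CPM. Cebpb stood at 94.5, 111 and 100.6 CPM, Cebpd at 64.8, 60.8 and 62.8 CPM, Nfkbia at 39.7, 46.2 and 45.9 CPM and Nfkb1 at 21.3, 23.4 and 22.5 CPM, and Il6 had no count.

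The profile of C4b over the 3 libraries was set beside those of 7555 genes outside the 9 that averaged 10 CPM or more, by the distance between log2 values of CPM + 1 centred on their own mean. The nearest were Wfikkn2, a secreted inhibitor of myostatin, at 18.4, 14.9 and 11.1 CPM, Pbrm1, Zfp467, Slc2a3 and Ddr1, and 11 genes lay within a distance of 0.1. For the mean of the C1q chains the nearest were Isoc2a, Idh3g, Stub1, Gnb2 and Lamtor1, and 1004 genes lay within 0.1. A profile of 3 libraries is short, and that of the C1q chains was common.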

How the data were processed

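Each group was 1 library of pooled RNA. The submitters' processing notes list GRCm38 (mm10), R 3.5.0, the assembler StringTie 1.3.4d and the aligner HISAT2 2.1.0, without saying what each was used for; library type and strand setting are not given in the sources used here. The deposited tables hold CPM per gene, calculated by the authors. All values above 0 became whole counts, within 1e-06, when multiplied by 1 of 5 divisors (56034275 to 57687235) that change from gene to gene, so that deposited CPM are not scaled alike within a library. Counts were recovered in this way, and deposited CPM were used as they stood for the log2 change of CPM + 1. Values of 63 rows with a repeated symbol were summed, none of them a member. Comparisons, made without a test, cover genes whose CPM averaged 1 or more. Count ratios have exact Clopper-Pearson 95% intervals conditional on the sum of both counts. Exon lengths came from GENCODE M21 and promoters from RefSeq.

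All members are named, with up to 4 genes of each other list by mean CPM among those of at least 1 CPM, and the 5 nearest profiles; some genes of these lists are counted but not reported here. Further genes (C8a, C8b, C9, Mbl1, Mbl2, Fcnb, C4a, C1rb, C1s2, Il6 and single cell type markers) were named after their values were seen. Members, lists and thresholds were chosen with earlier results of these data known. Procedures were tested on simulated data with Python 3.11.15, pandas 2.3.3 and scipy 1.17.1.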

Additional observations from a re-analysis of the deposited data

How the results depend on the processing

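No paired analysis was possible because each group is 1 library, and for the same reason no library could be left out. Of 243 changes of the 9 members recomputed under the alternatives, 238 moved by no more than the distance from the middle of the log2 counting interval to its end. The 243 include the alternatives without a filter and from 5 CPM. These alter only which genes are counted, so the changes of the members could not move under them. Another 5 moved by more than that distance, and 0 called changes reversed. The 5 were C3 from recovered counts (-0.0020 in aged EPA against aged control and 0.45 in aged EPA against young) and C1qa, C1qb and Serping1 with the length trend subtracted in aged control against young (0.02, 0.05 and 0.21). The number of members higher in aged EPA than in aged control was 1 as reported, 2 with a pseudocount of 0.1, the median of ratios, the trimmed mean of log ratios (TMM), or without mitochondrial and top 20 genes, and 3 from recovered counts. In aged EPA against young it was 3 as reported and 4 under the median of ratios, TMM, recovered counts and the length trend. The share of all compared genes under these alternatives was not computed, so these counts have no background beside them. At 1.5-fold the number higher was 0, 0 and 1 in aged EPA against aged control, aged control against young and aged EPA against young, and at 2-fold 0, 0 and 0. For the other complement genes, the numbers higher in these 3 comparisons were 2, 3 and 2 with a pseudocount of 5, 0, 2 and 2 at 1.5-fold and 0, 1 and 2 at 2-fold. They were 13 in both comparisons with young without a filter and 2 in aged EPA against aged control from 5 CPM. Without a filter all 48 genes are counted in place of 19, some of them on few counts, and from 5 CPM fewer than 19. The shares of all genes under these filters were not computed. Numbers lower were 3 in aged control against young with a pseudocount of 5 and from 5 CPM, 6 in aged EPA against aged control without a filter, 1 in both comparisons with young at 1.5-fold, and 1, 0 and 1 at 2-fold. Their medians became 0 in both comparisons with young without a filter, 0.0066 and -0.033 from 5 CPM, and -0.037 in aged control against young with the length trend subtracted. The unfiltered medians include 11 genes with no count in any library, each with a change of exactly 0. No scaling moved the median of all compared genes by over 0.1. Depth limited C2 most, with 294 to 331 counts.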
